A study of Homo sapiens with 6 samples.

Results

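Gene deserts are long stretches of chromosome without protein-coding genes, and open chromatin in them was described here for the human beta cell line EndoC-βH3. A region of the ATAC-seq table was taken as a gene-desert region when it lay on an autosome, had a mean signal of at least 20 and had its midpoint more than 250 kb from the transcription start site (TSS) of every protein-coding transcript in GENCODE 44. This held for 13444 of the 95361 autosomal regions with that signal, 14.1% of them, and the whole table has 108542 regions. Of the 13444, 1421 had sequence like that of centromeric satellite DNA and are described apart. Of the 12023 others, 11035 were classed as single-copy and 988 as multi-copy. Multi-copy means that the 24-base words of the central 300 bp occurred at least 2 times in the genome by their median. A single-copy member can therefore still hold words that recur. The mean signal is the authors' mean over all 6 libraries of read counts divided by library size factors. The table has no value for a single library, so no spread between replicates can be given, the depth of a library cannot be read from it, and the values describe the cells of both groups together.

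In ATAC-seq a transposase cuts DNA that nucleosomes leave free and tags it for sequencing, so reads collect at promoters, enhancers and sites of boundary factors. Many gene deserts flank genes for transcription factors and hold enhancers that act over long distances, while others are old, AT-rich and poor in known function. CTCF is the boundary factor that anchors chromatin loops together with cohesin, and deserts around developmental genes often coincide with such loops.

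The 3 non-senescent and 3 senescent libraries were each made from 100000 cells. EndoC-βH3 was derived from human fetal pancreas and was immortalised with telomerase and SV40 large T antigen, beside an inducible Cre recombinase. Hydroxytamoxifen for 3 weeks activated Cre, removed the immortalising transgenes and gave the senescent group, and the control libraries came from cells without it. The line is a single genetic background, so nothing here covers the spread between people. Regions within 2 kb of a TSS were present at all 9 beta cell genes examined, with a highest mean signal from 405 at NKX2-2 to 7894 at INS, which encodes insulin.

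Sequences of the central 300 bases are given for members of single-copy sequence that turn up again below, read on the plus strand of hg38. Members were chosen as the strongest that hold the core of CTCF, AP-1, MAF, NEUROD, ONECUT or RFX. Capitals mark each match to a searched motif on either strand: CCAGNNGGC for CTCF, TGANTCA for AP-1, TGCTGAC for MAF, CAGATGG for NEUROD, ATTGATT for ONECUT, GTTNCCATG for RFX, TGTTTAC for FOX and GGGCGGG for SP.
chr5:52491518-52491817, between ISL1 and ITGA1: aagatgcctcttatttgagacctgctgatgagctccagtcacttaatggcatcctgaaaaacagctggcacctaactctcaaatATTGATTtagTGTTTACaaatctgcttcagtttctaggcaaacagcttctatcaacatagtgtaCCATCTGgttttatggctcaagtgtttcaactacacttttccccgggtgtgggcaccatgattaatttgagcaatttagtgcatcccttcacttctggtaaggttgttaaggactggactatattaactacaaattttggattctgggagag
chr11:109773069-109773368, in an intron of LINC02715: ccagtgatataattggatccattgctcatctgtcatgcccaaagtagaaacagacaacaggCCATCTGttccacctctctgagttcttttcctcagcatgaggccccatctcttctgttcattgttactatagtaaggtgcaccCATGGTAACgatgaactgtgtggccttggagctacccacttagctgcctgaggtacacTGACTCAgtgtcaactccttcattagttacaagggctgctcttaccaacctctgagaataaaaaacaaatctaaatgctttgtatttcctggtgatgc
chr6:113564715-113565014, 292 kb from MARCKS: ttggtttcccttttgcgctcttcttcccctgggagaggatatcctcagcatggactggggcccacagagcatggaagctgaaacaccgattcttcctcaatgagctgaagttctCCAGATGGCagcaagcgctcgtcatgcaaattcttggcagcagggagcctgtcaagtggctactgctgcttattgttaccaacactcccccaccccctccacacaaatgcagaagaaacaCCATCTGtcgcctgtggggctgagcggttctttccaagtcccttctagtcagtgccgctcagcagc
chr10:78303178-78303477, in an intron of LINC00595: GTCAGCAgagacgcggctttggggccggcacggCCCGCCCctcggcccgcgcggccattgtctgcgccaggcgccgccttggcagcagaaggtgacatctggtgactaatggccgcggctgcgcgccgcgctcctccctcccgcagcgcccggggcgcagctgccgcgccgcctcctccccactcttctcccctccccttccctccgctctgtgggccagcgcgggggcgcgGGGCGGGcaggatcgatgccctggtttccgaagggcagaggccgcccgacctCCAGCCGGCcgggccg
The window between ISL1 and ITGA1 held ONECUT, FOX and NEUROD matches, motifs of factor families that act in the pancreas. The chr6 window shows that the CTCF and NEUROD letters can overlap, since its CTCF match contains the NEUROD letters, and it held a second NEUROD match on the other strand. The chr10 window had 76.3% GC and held CTCF, MAF and SP matches.

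Members were weaker, sparser and more AT-rich than open regions nearer to genes. Without satellite-like regions in any class, the median of the authors' mean signal was 82.8 in the gene-desert regions, 95.5 in the 24387 regions at 50 to 250 kb from a TSS, 101 in the 38902 at 2 to 50 kb and 554 in the 18495 within 2 kb. A wider region collects more reads, and the members were only a little narrower, with a median width of 492 bp against 516 bp at 50 to 250 kb. Per kb of region the medians were 176 for the members, 191 at 50 to 250 kb, 205 at 2 to 50 kb and 534 within 2 kb. The order of the 4 classes was therefore the same on both scales, although the quartiles of the members, 42.1 and 190, overlapped widely with those at 50 to 250 kb, 46.2 and 224.

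The GC content of the central 300 bp had a median of 42% in the members, against 44.7%, 48% and 66% in the classes ever closer to a TSS. The observed over expected frequency of CpG, which is high in CpG islands, had a median of 0.170 in the members and 0.770 within 2 kb of a TSS. Stretches more than 250 kb from a TSS made up 26.1% of the autosomes and held 16.0 members per Mb, or 18.9 per Mb of bases that are not N. The density was 28.7 regions per Mb at 50 to 250 kb, 33.8 at 2 to 50 kb and 146 within 2 kb. Regions share libraries, chromosomes and mapping, so these medians are a description without a test.

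**Figure D1:**
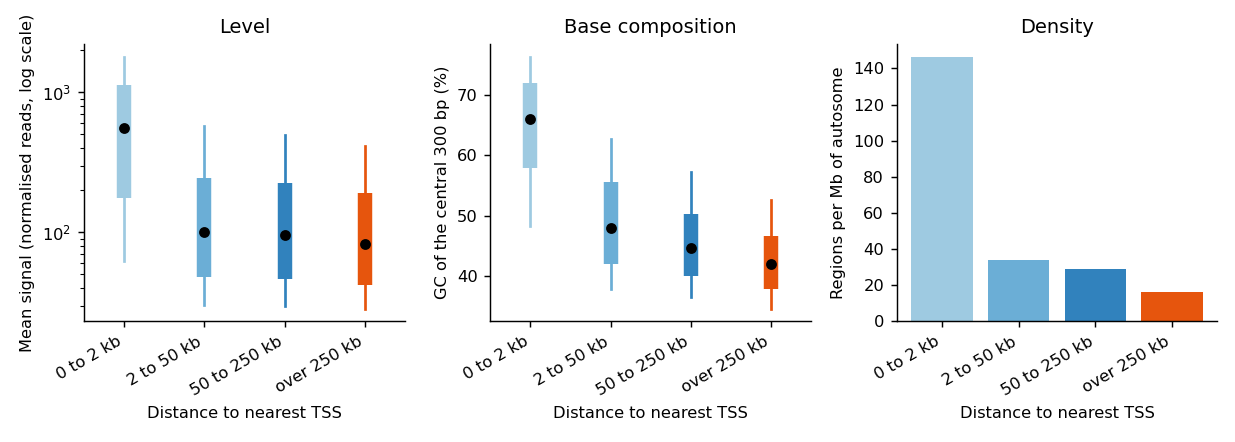
Mean signal (log scale), GC content and number of regions per Mb of autosome by distance to the nearest protein-coding TSS, without satellite-like regions. Points are medians, thick bars the quartiles and thin lines the 10th to 90th percentile over regions, bars in the right panel start at 0, and the regions over 250 kb are lowest in all 3 panels.

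Most members had a mean signal below 100, and so did most regions at 50 to 250 kb, with a median of 95.5 and a lower quartile of 46.2. In both classes the lowest values are cut off at 20. Among the 12023, 3818 (31.8%) had a mean signal of 20 to 50, 2975 (24.7%) of 50 to 100, 4312 (35.9%) of 100 to 500, and 918 (7.64%) of 500 or more. The strongest 918 were wider, with a median of 903 bp against 297 bp in the weakest bin, and richer in GC, with 46% against 41.3%. Multi-copy sequence made up 15.3% of the strongest bin and 8.80% of the weakest. Within the deserts the median level of single-copy members fell with distance up to 2 Mb, although the quartiles of the bins overlapped widely. The median was 85.6 in the 6375 at 250 to 500 kb, 81.2 in the 3392 at 500 to 1000 kb and 72.0 in the 1173 at 1 to 2 Mb. Beyond 2 Mb only 95 members were single-copy, and 71.9% of the members at that distance were multi-copy.

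**Figure D2:**
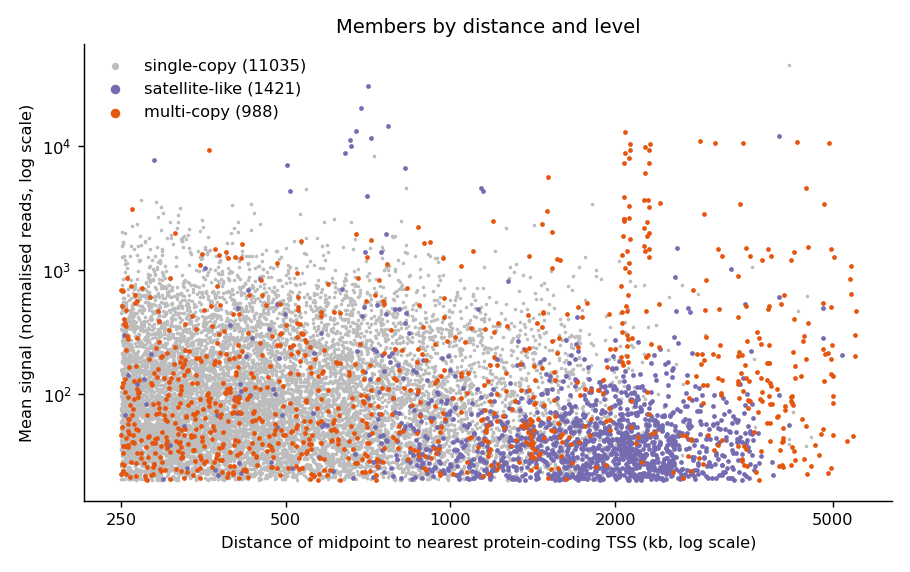
Mean signal of each of the 13444 gene-desert regions against the distance of its midpoint to the nearest protein-coding TSS (both axes log scale), coloured by kind of sequence. Single-copy members thin out with distance, satellite-like ones gather at low signal beyond 1000 kb, and multi-copy ones form vertical groups beyond 2 Mb, among them the ribosomal DNA of chromosome 21.

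Several strong single-copy members without a match to mitochondrial DNA lay in no gene or in introns of lncRNA genes, and those described here are not a complete ranking. Signals of 3660 and 3525 were found at chr2:16392786-16394761, in an intron of a lncRNA gene 272 kb from CYRIA, and at chr7:25862136-25862863, 290 kb from NFE2L3, a gene for a CNC family transcription factor. Of these, the chr7 member was compact, 728 bp wide with a signal per kb of 4842, against 1852 per kb for the 1976 bp of the chr2 member. The CYRIA member matched itself best at a shift of 26 bp, with an excess of 0.0784 in the share of matching bases over the median shift, against 0.0957 for the repeat at chr20:29444981-29445882. It held no searched motif in its centre, and the NFE2L3 member held an SP match.

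Levels of this size were also found, with 3370 at chr13:40086852-40087978, inside the lncRNA gene LINC00598, and 3360 at chr9:78694842-78695844, 398 kb from PSAT1, an enzyme of serine synthesis. The member at chr5:52491026-52492310, whose sequence is given above, had a mean signal of 3183, and the one inside LINC02715 at chr11:109772841-109773596 had 3144. A signal of 2899 was found at chr6:19538021-19539005, in an intron of the lncRNA gene LNC-LBCS and 299 kb from ID4, an inhibitor of basic helix-loop-helix factors. Further values were 2889 at chr4:67106609-67107696, 438 kb from CENPC, 2819 at chr6:80638347-80639562, 532 kb from BCKDHB, and 2745 at chr5:7077200-7078690, 318 kb from ADCY2. For scale, regions within 2 kb of a TSS had a median of 554, a 90th percentile of 1800 and a maximum of 9543. The members listed here were picked for their high signal and are not typical of the class.

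Genes for islet transcription factors flanked deserts more often than their share of genes. A total of 1542 protein-coding genes bounded the 937 deserts, and of the 42 listed islet factors on autosomes 19 were among them. They made up 1.23% of the flanking genes (95% Wilson interval 0.790 to 1.92%) and 0.220% of the 19103 autosomal protein-coding genes. The 24 deserts beside them held 381 members, 30.9 per Mb of bases that are not N, against 18.7 per Mb in all other deserts. The list was made with earlier results of these data known, and many of its genes lie in gene-poor surroundings in any cell type. Members beside a gene are those in a desert that the gene bounds, which does not assign them to it. A protein-coding TSS of another gene was nearer to the strongest member beside ISL1, SOX9, SOX4, BCL11A, MEIS1, FOXA2, MEIS2 and RFX3. TSSs of noncoding genes are left out of that list and can be nearer still. The strongest member beside ZFHX3 lay 20 bp from a TSS of LINC01572. That beside SOX9 lay 440 bp from one of LINC00511, and that beside ONECUT1 lay 908 bp from one of LINC02490.

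Beside SOX9, a progenitor factor of the pancreas, lay 52 members, and 42 lay beside ISL1, a LIM homeodomain factor needed for endocrine cells. The members beside SOX9 ranged from 20.01 over a median of 117 to 895, the strongest at chr17:72590917-72592939 in an exon of LINC00511. Those beside ISL1 ranged from 21.7 over 71.1 to 3183, and the second of them by level, at chr5:52269294-52270227, had 1717. BCL11A, a zinc finger repressor, was flanked by 39 members with a highest signal of 771, and NR5A2, a nuclear receptor of the exocrine pancreas, by 32 with a highest signal of 491. Beside SOX4 lay 30 members, with 1759 at chr6:20868396-20869194 in an intron of CDKAL1.

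NKX6-1, a homeodomain factor that keeps beta cell identity, was flanked by 16 members, 34.7 per Mb. Their signals ranged from 29.0 over 82.8 to 666, and both the strongest, at chr4:84158481-84159518, and the next, with 570 at chr4:84032465-84033188, lay in introns of LINC02994. SIX2, a factor of beta cell maturation, had 5 members in a desert of 0.102 Mb, the highest with 1468 at chr2:45273383-45274841 and 1266 at chr2:45330507-45331459. MEIS1 had 25 members with a highest signal of 1340, ZFHX3 28 with 970, PROX1 16 with 867, ETV1 23 with 731 and FOXA2 5 with 511. GLIS3 and RFX3 share a desert with 3 members of 80.1, 253 and 765. LMX1A and ONECUT1 had 4 members each, with highest signals of 265 and 222, and MEIS2 and SIX3 had 2 each, with highest signals of 178 and 236. Counts beside these genes therefore ran from 2 to 52.

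Other developmental regulators and neural adhesion genes flanked deserts as well, without a high density of members. Of 273 other developmental regulators, 74 flanked a desert, 4.799% of flanking genes (95% interval 3.84 to 5.98%) against 1.43% of all autosomal protein-coding genes. Their 86 deserts held 890 members, 19.5 per Mb, against 18.9 elsewhere. Highest by count in this list were FOXD4L5 with 73, MAF with 70, SOX11 with 46, NR2F1 with 41 and SALL3 with 40, and FOXD4L5 lies in duplicated sequence. Neural adhesion and cadherin genes, which guide contacts between neurons, made up 4.67% of flanking genes (3.72 to 5.84%) against 0.979% of all. Their 117 deserts held 2621 members, 21.8% of the total, at 18.1 per Mb against 19.2 elsewhere. Beside PCDH9 lay 124 members, beside PCDH7 121, beside SLITRK1 118, beside CDH8 109 and beside SLITRK5 98, with medians from 68.4 to 85.6.

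Density varied widely between deserts. From the 201 deserts of at least 1 Mb, any with few bases that are not N were left out for density. The rest had a median of 16.9 members per Mb of bases that are not N, with quartiles of 11.4 and 23.6 and a maximum of 61.2. The maximum belonged to the desert between ZNF608 and GRAMD2B on chromosome 5, with 68 members in 1.11 Mb, a median signal of 112 and a highest of 2165 at chr5:126043709-126044629 in a lncRNA intron. High densities were also found in the stretch between the outer TSSs of CHD6 and PTPRT on chromosome 20 with 63 members, the one between WWOX and MAF on chromosome 16 with 58, and the one between KLHL1 and DACH1 on chromosome 13 with 50. The 10 deserts with most members held 8.32% of all members and the 100 with most held 40.8%. A further 107 deserts held none of any kind, but these were short, with a median of 0.0395 Mb and 14.2 Mb in all. Only 3 empty deserts reached 1 Mb: COBL to POM121L12 with 1.22 Mb and POM121L12 to VSTM2A with 1.01 Mb on chromosome 7, and STXBP6 to NOVA1 with 1.05 Mb on chromosome 14.

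By number of members, the desert at the start of chromosome 21 led with 228, but 6 of them were single-copy. Of the others, CELF4 to PIK3C3 on chromosome 18 held 132 in 3.89 Mb, PLA2G4A to BRINP3 on chromosome 1 held 90 in 3.15 Mb, PCDH7 to ARAP2 on chromosome 4 held 84 in 4.99 Mb, and B3GALT2 to KCNT2 on chromosome 1 held 83 in 2.92 Mb. Their medians lay between 54.7 and 79.7 and their highest signals between 981 and 1292, below the highest signal beside ISL1.

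Neighbouring open regions were farther apart in deserts. The median distance from a member to the nearest other region, midpoint to midpoint, was 10.7 kb, against 8.49 kb at 50 to 250 kb and 6.85 kb at 2 to 50 kb. Of the members, 48.0% had another region within 10 kb, against 55.5% and 65.5%. More than 100 kb separated 336 members (2.79%) from the next region, against 0.849% at 50 to 250 kb.

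Distance from a TSS did not mean absence of a gene. Of the 12023 members without satellites, 6460 (53.7%, 95% Wilson interval 52.8 to 54.6%) lay in no annotated gene, 3667 (30.5%, 29.7 to 31.3%) in a gene for a long noncoding RNA (lncRNA) and 1757 (14.6%, 14.0 to 15.3%) in a protein-coding gene, nearly all of the latter in introns (1716) and only 41 in exons. The intervals hold counting error alone, as regions of the same libraries cannot stand in for replicates. At 50 to 250 kb the shares were 35.3% in no gene, 19.7% in a lncRNA gene and 43.6% in a protein-coding gene. The name gene desert thus fits the distance used by the rule rather than an absence of transcripts. When the TSSs of all annotated genes were used, 1565 of the 13444 members, satellite-like ones included, remained beyond 250 kb, and 282 of the 11035 single-copy ones (2.56%). Levels were alike by place, with median signals of 80.3 in no gene, 85.6 in lncRNA introns and 83.8 in protein-coding introns, and higher, at 147, in the 247 lncRNA exons, of which the 191 single-copy ones had 109.

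The 1757 members in protein-coding genes fell in 237 genes, most of them very long. WWOX, an oxidoreductase gene at a common fragile site, held 53, with signals from 27.4 over a median of 138 to 1344. GPC6, a glypican gene, held 51, FHIT, at another common fragile site, 49, and PTPRT, a receptor tyrosine phosphatase gene, 46. PTPRT had the strongest of these introns, 2502 at chr20:42837206-42838004, 352 kb from the nearest TSS of a protein-coding transcript. GPC5 held 40, CSMD1 33, CNTNAP2 32, LRP1B 30, LSAMP 29 and PTPRD 29, genes mostly of the nervous system, with highest signals of 723, 1168, 663, 1069, 924 and 1645. Medians over these 10 genes ran from 57.9 in LRP1B to 140 in PTPRT.

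Few members were promoters of noncoding genes. Within 1 kb of a lncRNA TSS lay 332 of the 11035 single-copy members (3.01%), with a median signal of 123 and a GC content of 45.5%, against 81.4 and 41.3% in the members more than 1 kb from any TSS. The strongest were at the TSS of MIR4458HG (2448, 67.7% GC), of LINC02351 (2429, 48.7% GC) and of LINC00662 (2298, 61.3% GC). SP matches, typical of CpG island promoters, were in 4.22% of the members near a lncRNA TSS and in 1.05% of those away from any TSS.

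Chromosomes differed in how many single-copy members their deserts held. Per Mb of desert bases that are not N, chromosome 13 had 23.9 and chromosome 20 had 23.1, and chromosome 21 had 7.18, chromosome 19 9.29 and chromosome 14 10.2. Those bases include satellite and multi-copy sequence, which adds length but no single-copy member. With multi-copy members counted too, chromosome 21 had 21.8, chromosome 19 9.47 and chromosome 14 10.6. Desert sequence, bases that are N included, makes up 48.1% of chromosome 13, where members were 29.8% of all regions without satellites, and 9.55% of chromosome 19, where they were 2.09%. Without satellite-like members, chromosome 2 held most, 1235, followed by chromosome 5 with 1044. Copy number of the chromosomes in the line was not measured here.

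**Figure D3:**
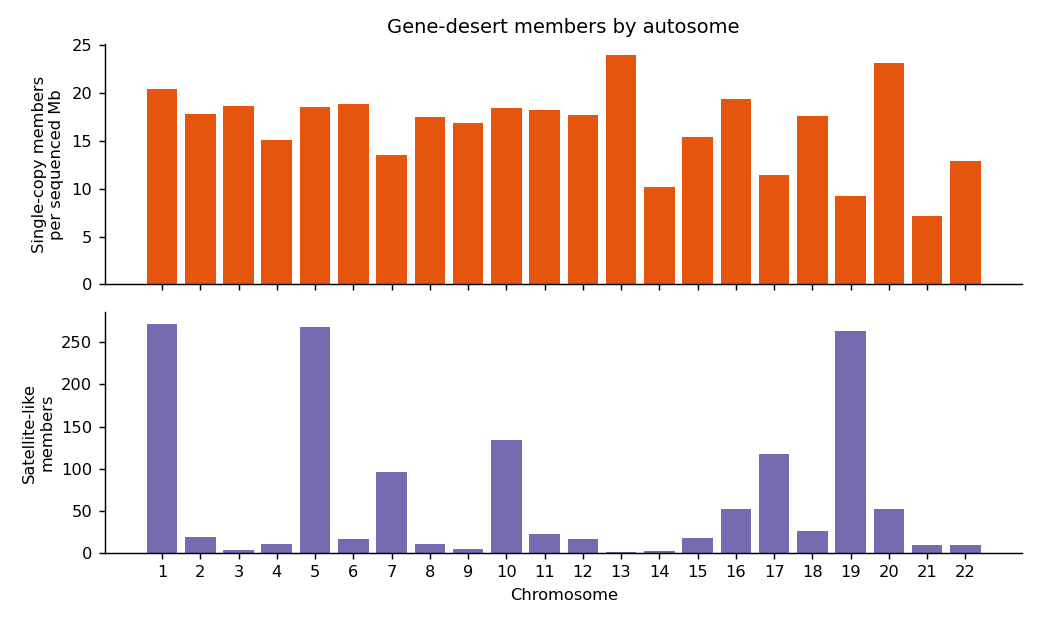
Single-copy gene-desert regions per Mb of desert bases that are not N (top) and number of satellite-like members (bottom) for each autosome. Chromosomes 13 and 20 are highest in the top panel, and chromosomes 1, 5 and 19 hold most satellite-like members.

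Motifs were counted in the central 300 bp of single-copy regions on both strands, with the same letters read backwards as a reference for base composition. The NEUROD E-box, bound by neurogenic basic helix-loop-helix factors of endocrine cells, was in 14.6% of the members (95% Wilson interval 13.9 to 15.3%) and its backwards form in 1.59%. The core of a MAF site was in 7.76% against 0.625% backwards, the CTCF core in 6.17% against 0.299%, and the RFX motif in 2.13% against 0.562%. The backwards letters of MAF and CTCF hold a CpG that their forward letters do not spell, and CpG was depleted in the members, so their backwards shares are low references. AP-1, the motif of FOS and JUN dimers, was in 13.8% against 9.77% backwards, ONECUT in 8.62% against 4.91%, HNF1 (GTTAATNAT) in 3.498% against 1.66% and AGATAAG, a site of GATA factors, in 6.91% against 4.12%. FOX was in 11.4% against 10.1%, TEAD (GGAATGT) in 3.78% against 3.28%, and the homeodomain core TAATTA in 14.96% against 15.5%, so that core was no more frequent than its letters read backwards. ETS (CCGGAAG) was in 0.761% against 3.24% backwards, where the backwards letters have no CpG. The SP motif reads the same backwards and was in 1.24%, and the p53 motif, 2 joined decamers with at most 2 mismatches outside their cores, was in 21 members (0.190%). No searched motif was found in 36.7% of the members, 1 motif in 38.7%, 2 in 18.2%, 3 in 5.06% and 4 or more in 1.31%.

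Compared with regions at 50 to 250 kb, the members held the CTCF core less often, with a difference of −2.64 percentage points (95% Newcombe interval −3.22 to −2.06), and SP less often, with −2.09 (−2.39 to −1.77). ETS was also less frequent in the members, with −0.478 (−0.689 to −0.252). They held AP-1 more often by 1.42 points (0.651 to 2.20), ONECUT by 2.21 (1.60 to 2.83), homeodomain by 2.25 (1.46 to 3.05), GATA by 1.34 (0.791 to 1.91), FOX by 1.24 (0.534 to 1.96) and HNF1 by 0.475 (0.0747 to 0.894). For NEUROD the difference was −0.772 (−1.57 to 0.0441), for MAF −0.0632 (−0.665 to 0.555) and for TEAD 0.101 (−0.323 to 0.543), with intervals that include 0. With multi-copy regions included in both classes, the NEUROD difference was −1.07 (−1.83 to −0.293), which excludes 0. Base composition moves with these values. Among regions with 40 to 50% GC, a limit set after the values had been seen, there were 5415 members and 11277 regions at 50 to 250 kb, and the difference was −0.857 (−1.66 to −0.0226) for CTCF, 0.925 (0.131 to 1.75) for GATA and −0.587 (−0.870 to −0.277) for SP. It was 0.527 (−0.577 to 1.66) for AP-1, 0.696 (−0.0921 to 1.52) for ONECUT, 0.406 (−0.584 to 1.43) for FOX, 0.428 (−0.112 to 1.01) for HNF1 and −0.0535 (−1.11 to 1.03) for homeodomain, all with intervals that include 0. The same held for ETS, with −0.113 (−0.381 to 0.190), and for NEUROD, with 0.459 (−0.726 to 1.67). With multi-copy regions included, the NEUROD difference in this GC range was 0.0864 (−1.06 to 1.26), which includes 0. Near TSSs, within 2 kb, 14.4% of regions held CTCF, 4.28% AP-1, 5.35% NEUROD, 1.32% ONECUT and 37.7% SP.

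Members with a CTCF core had a median signal of 98.4 and 195 per kb, against 81.7 and 175 per kb without it. For NEUROD the medians were 89.6 with and 81.6 without, for MAF 83.4 and 82.4, for AP-1 83.1 and 82.4, and for ONECUT 80.2 and 82.8. The share with CTCF was 5.43% at a signal of 20 to 50 and 7.84% at 500 or more, and that with NEUROD was 13.2% and 16.2%.

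**Figure D4:**
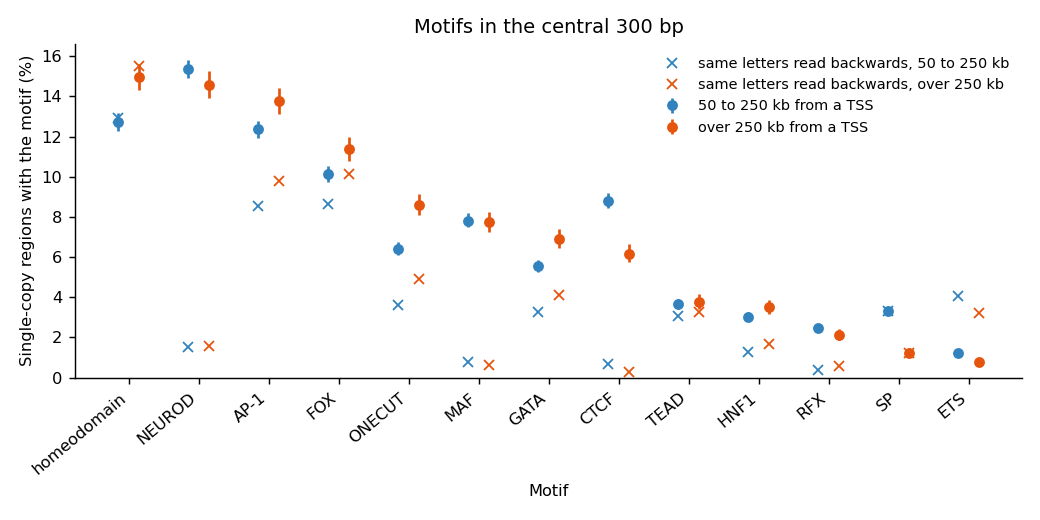
Share of single-copy regions with each motif in the central 300 bp, at 50 to 250 kb from a TSS and over 250 kb, as dots with 95% Wilson intervals, and the share with the same letters read backwards as crosses. NEUROD, MAF, CTCF and RFX lie far above their crosses (those of MAF and CTCF hold a CpG in their letters), homeodomain lies at its cross, and CTCF is lower over 250 kb.

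Satellite-like members were low, wide and centromeric. In the repeat of centromeres, alpha satellite, a unit of fixed length recurs, and 1381 of the 1421 matched themselves at or within 1 base of that length. Runs of ATTCC, the unit of other pericentromeric satellites, were in 122, and 82 met both criteria. ATTCC runs also match themselves at 1 of the lengths searched, so the 82 cannot be taken as alpha satellite. They had a median width of 2534 bp, a median signal of 39.0 and a median signal per kb of 14.8, against 176 per kb for single-copy members. Their 24-base words occurred at a median of 2136 places, so a read from such a word fits many places. They were 91.4% of all 1554 autosomal regions of this kind. Chromosomes 1, 5 and 19 held 272, 268 and 264 of them, chromosome 10 held 134, chromosome 17 held 117, and chromosome 13 held 1. Those with ATTCC runs had a higher median signal, 179 against 38.9 for those with the alpha period, with the 82 that met both criteria counted on both sides.

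A few satellite-like members had very high values, and 7 of the 10 strongest members of all were of this kind, while 2 were multi-copy and 1 was a tandem repeat classed as single-copy. The strongest satellite-like member, chr10:41857374-41916252, was 58879 bp wide, with a signal of 30340 but only 515 per kb. Signals of 20075, 13223, 12122, 11492 and 11184 were found on chromosome 1, of which 4 lay together between chr1:143184646 and chr1:143258097, and 14507 at chr5:49656434-49661812. The central 300 bases of the chromosome 10 member show the repeat, with GGAAT and ATTCC in capitals. Beside it stand the strongest member of all, on the short arm of chromosome 21, with the letters CCCAGNATG in capitals, part of the motif of ZNF143, and the next of the single-copy class, on chromosome 4, whose units return every 42 bases. The ZNF143 letters were added after the sequence had been seen.
chr10:41886663-41886962, satellite: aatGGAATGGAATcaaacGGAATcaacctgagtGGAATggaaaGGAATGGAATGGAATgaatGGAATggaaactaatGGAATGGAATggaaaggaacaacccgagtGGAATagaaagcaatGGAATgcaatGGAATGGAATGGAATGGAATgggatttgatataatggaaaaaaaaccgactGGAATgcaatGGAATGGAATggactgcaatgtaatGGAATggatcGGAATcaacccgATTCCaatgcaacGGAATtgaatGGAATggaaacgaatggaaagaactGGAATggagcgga
chr21:6370515-6370814, strongest member: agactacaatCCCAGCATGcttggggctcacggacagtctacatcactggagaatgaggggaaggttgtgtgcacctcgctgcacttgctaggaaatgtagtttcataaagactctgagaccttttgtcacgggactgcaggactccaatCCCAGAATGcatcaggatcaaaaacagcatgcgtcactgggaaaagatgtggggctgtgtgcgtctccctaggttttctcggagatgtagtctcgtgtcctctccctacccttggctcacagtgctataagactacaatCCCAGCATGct
chr4:49710379-49710678, AT-rich repeat: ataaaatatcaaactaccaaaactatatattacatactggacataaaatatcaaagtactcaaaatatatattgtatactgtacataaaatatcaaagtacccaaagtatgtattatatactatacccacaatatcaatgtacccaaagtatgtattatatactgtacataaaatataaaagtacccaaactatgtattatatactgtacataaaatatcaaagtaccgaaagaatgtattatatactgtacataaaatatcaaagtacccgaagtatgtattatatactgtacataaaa

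The strongest member, chr21:6368990-6372340, had a mean signal of 45291 and 13516 per kb, lay 4151 kb from the nearest protein-coding TSS, that of TPTE, and held the ZNF143 letters 12 times in 3351 bp. Its sequence returned most often at a period of 139 bp. A multi-copy member with the same period, chr21:7656993-7659719, held them 8 times and had a signal of 10924, and another of this period, chr20:29444981-29445882, held them 3 times and had 3419. In single-copy members in general the ZNF143 letters were in 1.37%, against 1.73% at 50 to 250 kb, and the difference within 40 to 50% GC was 0.146 (−0.246 to 0.576). The chromosome 4 member, chr4:49709178-49711880, had a signal of 8313, 3076 per kb, and a GC content of 23.3% in its centre.

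The short arm of chromosome 21 before the first protein-coding TSS held 236 members, 1.76% of the total, with 12.1% of the summed signal, and 222 of them were multi-copy. The 5 members farthest from any protein-coding TSS, 5403 to 5507 kb from TPTE, all lay there, with signals of 460, 295, 200, 45.8 and 1073. Ribosomal DNA, which encodes the large RNAs of the ribosome and is present in many copies, was placed there 3 times in the build (RNA45SN1, RNA45SN2 and RNA45SN3). The 22 members that overlap these genes had signals from 1034 over a median of 3249 to 12924 and a median of 4591 per kb, and made up 4.28% of the summed signal. All multi-copy members together were 7.35% of members and 16.2% of the summed signal. A value at such a site cannot be tied to a single place.

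Copies of mitochondrial DNA in nuclear chromosomes formed the last group. A match of at least 100 bp to the mitochondrial genome was found in 10 members, with signals from 67.1 over a median of 574 to 9314. The strongest, chr13:109424131-109424335, was 205 bp wide, matched over most of its 300 bp window with 99.2% identity, and had 45436 per kb, the highest of all members. On chromosome 17, chr17:22521215-22521633 had 4564 with 86.7% identity and chr17:53105883-53106378 had 1727 with 96.3% identity. The authors had removed reads that aligned to the mitochondrial genome, and whether reads of mitochondrial origin contribute at these copies was not tested.

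Values just inside and outside the limits of the rule show where it cuts. Nearest to 250 kb inside were regions with signals of 116 at 250.043 kb from JADE1, 41.9 at 250.09 kb from LUZP2 and 76.7 at 250.105 kb from LRRTM1. Just outside lay signals of 48.8 at 249.949 kb from LAMA2, 811 at 249.964 kb from SPRY1 and 152.4 at 249.971 kb from SAMD5. Nearest to the signal limit, members had 20.0018, 20.0037 and 20.0102, and regions left out had 19.9997, 19.9902 and 19.9887.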

How the data were processed

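ATAC-seq was measured in 3 non-senescent and 3 senescent EndoC-βH3 libraries. The authors used Trim Galore on the reads and Bowtie2 for alignment (hg38), discarded duplicates and mitochondrial reads, shifted the rest for the transposase offset with deepTools, took the union of MACS2 peaks, counted reads in it and ran DESeq2. Versions are not given in the sources used here, and no filter on mapping quality is named. The signal values are the authors' mean per region over the 6 libraries, of counts divided by size factors, as deposited. The other 5 value columns hold the authors' comparison of the groups (fold change, its error, statistic and p-values) and were not used. So there was no contrast between groups and no test, and the depth per library cannot be read from the table.

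Distances run from a region's midpoint to GENCODE 44 TSSs, with starts counted from 1. RefSeq of GRCh38.p14 placed the ribosomal genes. Satellite-like means self-matches at the alpha unit length exceeding those at nearby lengths by 0.1, or at least 10% of bases in ATTCC or in GGAAT, within 3000 bp. Copies are genome-wide counts of 24-base words, and mitochondrial copies are blastn 2.17.0 matches of at least 100 bp. Motifs were searched in 300 bp on both strands. Scripts used Python 3.11.15, pandas 2.3.3, scipy 1.17.1 and numba 0.67.0 and were tested on simulated data.

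Members, the 3 gene lists, motifs and named regions were chosen with earlier results of these data known. Named were the 10 members of highest signal, the 5 farthest, those nearest the limits, the deserts with most members in number and per Mb, and the genes of each list with most members. The split by copies, the strongest single-copy members, the ZNF143 letters, the GC range and the strongest member beside each gene were added after values were seen. Results on 1 gene and the desert beside it are not reported here.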

Additional observations from a re-analysis of the deposited data

How the results depend on the processing

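No paired analysis was possible because only means over all libraries were used. Of 41 alternative values, 20 stayed within 1.5 times for counts or within the 95% interval of the reported value otherwise, and 21 moved. In what follows, counts of members include satellite-like ones, whereas shares and medians leave them out. With a distance limit of 100 kb there were 26036 members, 26.5% in a protein-coding gene, 7.44% with the CTCF core, a median signal of 88.6 and 182 per kb. With a limit of 500 kb there were 6657 members, 7.22% in a protein-coding gene, a median signal of 80.6 and 171.1 per kb. A minimum signal of 50 left 8712 members with a median of 134 and 238 per kb, and a minimum of 10 gave medians of 74.6 and 164 per kb. With TSSs of all genes 1565 members were left. In single-copy members, an alternative chosen after seeing the data, 15.6% lay in a protein-coding gene and the median GC content was 41.3%. In a window of 150 bp 3.39% held the CTCF core and 6.90% AP-1, and in 500 bp 9.23% and 19.8%. Levels could not be split by group or library, the table does not hold the depth per library, and values at multi-copy sites cannot be tied to a single place.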
